A study of Mus musculus with 10 samples.

Results

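The TNF superfamily and the TNF receptor superfamily were examined in spontaneous lymphomas of 10 mice. The members were every probe whose gene name in the scanner files begins with Tnfsf or Tnfrsf, with those of Tnf, Lta, Ltb, Ltbr, Cd40, Cd40lg, Cd27 and Cd70 added. This gave 39 genes read by 53 probes, 16 ligands with 18 probes and 23 receptors with 35 probes, among 27729 genes and unnamed transcripts on the array. One group of 5 mice was heterozygous for LIP, the short isoform of the transcription factor C/EBPβ, and is written +/L (mice 20, 866, 688, 23 and 517). The other 5 mice were wild type, written +/+ (mice 40, 11, 101, 17 and 19). The +/L mice were 21, 11, 18, 20 and 20 months old and the +/+ mice 26, 29, 26.5, 20 and 23 months old, so that the groups differ in age as well as in genotype. The labels name no strain and give 1 tumour and 1 single-colour array per mouse, each mouse with its own number, so each n counts animals as labelled.

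Ligands of the TNF superfamily are mostly membrane-bound or secreted trimers, and their receptors gather adaptor proteins of the TRAF family or, through a death domain, the machinery of cell death. Many of these receptors lead to NF-κB. In lymphoid tissue BAFF and APRIL (Tnfsf13b and Tnfsf13) feed B cells and plasma cells through the receptors BAFF-R, TACI and BCMA (Tnfrsf13c, Tnfrsf13b and Tnfrsf17), lymphotoxins shape the stroma, and OX40, GITR, CD27, CD30 and CD137 (Tnfrsf4, Tnfrsf18, Cd27, Tnfrsf8 and Tnfrsf9) are costimulatory receptors of T cells.

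Every value below is the log2 of the processed signal of the probe minus the log2 of the array's 75th percentile, so 0 is the 75th percentile and negative values are dimmer. A level is compared between tumours for the same probe and never between probes. Spots well above background made up 48.0% to 66.7% of an array, controls left out. Precision is limited by having only 5 arrays per genotype. Defining markers of lymphoid tissue were present: 9 of 10 B-cell markers and 10 of 11 T-cell markers were well above background on all 10 arrays. By the file headers the arrays lay on 3 slides, which held mice 20, 40, 688 and 17, mice 23, 517 and 11, and mice 866, 101 and 19. The description labels place mice 866 and 17 on other slides. In whole-tumour RNA, fewer cells of a type and less RNA per cell cannot be told apart.

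The tumour of +/L mouse 20 stood apart from the others. Among 7 plasma cell markers its score, the mean deviation from the average of the 10 tumours, was 1.94, the highest of the 10. Its score over 11 T-cell markers was -1.67, the lowest, and that over 4 epithelial markers was 5.28, where the other 9 tumours lay between -1.41 and 0.72. Results that rest on this tumour are given with and without it. Of 3 arrays labelled male, 2 went against that label: in mice 20 and 11 all 4 probes of Xist, the RNA of the inactive X chromosome, were well above background and 0 of 4 probes of the Y-linked Ddx3y, Eif2s3y and Jarid1d were. Whether the genotype labels of these 2 arrays hold was not tested, and results are given without both where that moves them. In +/L mouse 866 the B-cell score was -1.53 and in +/L mouse 517 the macrophage score was -2.32, each the lowest of the 10.

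Of the 39 genes, 34 passed the filter (3 or more arrays well above background, no missing value) and were tested: 12 of 16 ligands and 22 of 23 receptors. All 10 arrays had 24 of them well above background. Cd40lg (CD40 ligand, carried by helper T cells), Tnfsf12 (TWEAK) and Tnfrsf23 (a mouse decoy receptor for TRAIL) were well above background on 0 of 10 arrays. Tnfsf15 (TL1A) was well above background on 2 and Tnfsf18 (GITR ligand) on 1. The receptors of 4 of these ligands were measured, Cd40, Tnfrsf12a, Tnfrsf25 and Tnfrsf18, so these axes were seen from the receptor side only. No probe is named Tnfsf13 alone. The probe named Tnfsf12-tnfsf13 (A_52_P118591, chr11:69496657-69496716 in mm9) lists records of Tnfsf13 and of the joined Tnfsf12 and Tnfsf13 transcript, and it stands for Tnfsf13 here, a choice made after its values were seen.

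**Figure D1:**
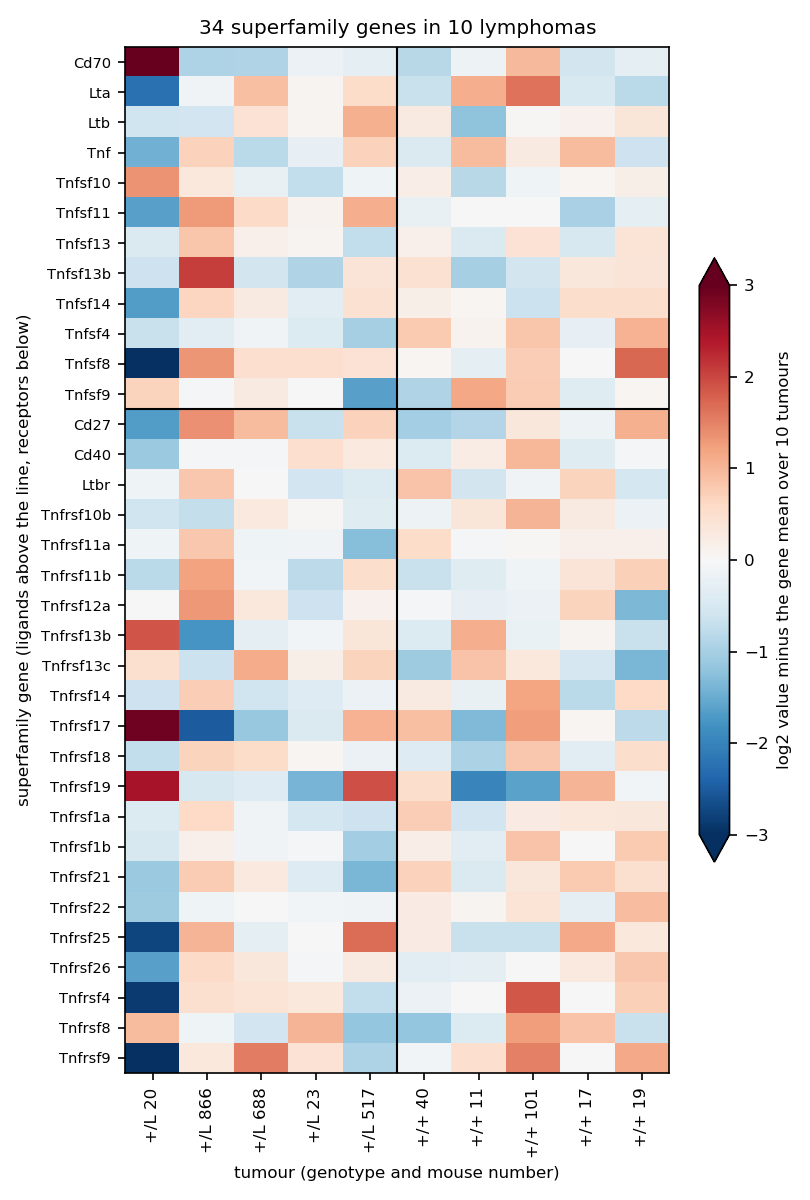
Log2 value of each of the 34 tested superfamily genes in each tumour, minus the mean of that gene over the 10 tumours (colour, limited to -3 and 3), with 12 ligands above the horizontal line and 22 receptors below, and 5 +/L tumours left of the vertical line and 5 +/+ tumours right of it. The column of +/L mouse 20 holds the lowest value of the 10 tumours for 13 genes and the highest for 5.

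Mouse 20 had the lowest value of the 10 tumours for 13 of the 34 genes (38.2%) and the highest for 5 (14.7%), where over all 17775 genes tested it was lowest for 16.2% and highest for 25.2%. The 13 were Cd27, Cd40, Lta, Tnf, Tnfrsf11b, Tnfrsf22, Tnfrsf25, Tnfrsf26, Tnfrsf4, Tnfrsf9, Tnfsf11, Tnfsf14 and Tnfsf8, and the 5 were Cd70, Tnfrsf13b, Tnfrsf17, Tnfrsf19 and Tnfsf10. Mouse 866 was highest for 8 genes and lowest for 4, where over all genes it was highest for 7.51% and lowest for 16.1%. The +/+ mouse 101 was highest for 8 members (23.5%, and 13.4% of all genes) and lowest for 0. Mouse 517 was lowest for 8 (23.5%, and 14.2% of all genes), among them Tnfrsf1a, Tnfrsf1b, Tnfrsf21 and Tnfrsf11a.

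The first question was whether the members differ between +/L and +/+ lymphomas. With limma fitted on all 17775 genes, 0 of 34 members had a Benjamini-Hochberg adjusted p under 0.05, as was the case for 0% of all genes. An unadjusted limma p under 0.05 was reached by 1 of 34 members, lower in +/L, against 8.58% of all genes (5.44% lower and 3.14% higher in +/L). Of the 34 members, 21 were lower and 13 higher in +/L, 7 and 5 among the ligands and 14 and 8 among the receptors, where 51.9% of all genes were lower. The median difference was -0.16 over the members and -0.02 over all genes, on the log2 scale. Without mouse 20, 18 of 34 members were lower, with medians of -0.10 over the members and -0.06 over all genes. Without mice 20 and 11, 19 were lower, with the same medians. When 1 tumour was left out the count ranged from 18, also without mouse 101, to 26 without mouse 11. Groups without any overlap of their 5 values occurred for 0 of 34 members, against 1.8% of all genes. Adjusted p-values of the members lay between 0.54 and 0.99 in limma, and differences between -1.23 (Tnfrsf9) and 0.85 (Tnfrsf19), both of which rest largely on mouse 20, as given below. Without mice 20 and 11, 2 of 34 members had an unadjusted limma p under 0.05, against 14.2% of all genes in that fit. They were Tnfsf4 (-1.07, adjusted p = 0.24) and Tnfsf11 (1.12, adjusted p = 0.23).

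The lowest p belonged to Tnfsf4, the ligand of OX40 on antigen-presenting cells (A_51_P473170, chr1:163348095-163348153 in mm9). In the order of mice given above, it read -4.46, -4.12, -3.91, -4.20 and -4.80 in the +/L tumours and -3.0, -3.69, -2.96, -4.05 and -2.76 in the +/+ tumours; all later values keep this order. All 5 +/L tumours were at or below -3.91, and 1 of the 5 +/+ tumours, mouse 17, lay within their range. The means were -4.30 ± 0.34 and -3.29 ± 0.55 (SD, n = 5 each), a difference of -1.01 ± 0.29 (SE). The limma p was 0.0059 unadjusted and 0.54 adjusted, and an exact two-sided permutation test gave p = 0.016. Within the 3 slides the difference was -0.66, -0.81 and -1.26, and with the slide as a block -0.88. The probe was dim and exceeded background clearly on 3 of 5 +/L arrays and all 5 +/+ arrays, and the difference ranged from -1.46 to -0.28 over 22 alternatives, with a lowest limma adjusted p of 0.24.

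The 4 next members were receptors and were also lower on average in +/L. Tnfrsf22, a mouse decoy receptor for TRAIL, read -4.32, -3.39, -3.28, -3.34 and -3.37 in +/L and -3.02, -3.17, -2.85, -3.52 and -2.34 in +/+ tumours. Mouse 20 lay below all others, and the other 4 +/L tumours were within the +/+ range. Its difference was -0.56 ± 0.28 (SE, limma adjusted p = 0.61) and -0.37 without mouse 20. The probe was well above background on 3 of 5 +/L arrays and all 5 +/+ arrays. Tnfrsf1b, the TNF receptor that carries no death domain, read 1.42, 2.06, 1.81, 1.87 and 0.86 in +/L and 2.12, 1.57, 2.77, 1.92 and 2.70 in +/+ tumours. Its lowest value was that of mouse 517 and its 2 highest were those of +/+ mice 101 and 19, with the groups overlapping between 1.57 and 2.06. The difference was -0.61 ± 0.31 (SE, limma adjusted p = 0.62).

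Tnfrsf10b, the mouse death receptor for TRAIL, read -3.70, -3.82, -2.81, -3.06 and -3.47 in +/L and -3.25, -2.74, -2.09, -2.83 and -3.29 in +/+ tumours. The +/+ tumour of mouse 101 was the highest, and mice 20 and 866 were the lowest. It differed by -0.53 ± 0.29 (SE, limma adjusted p = 0.64). Tnfrsf21, the death-domain receptor DR6, read -0.63, 1.26, 0.78, 0.11 and -0.88 in +/L and 1.18, 0.05, 0.83, 1.28 and 0.97 in +/+ tumours. Only mice 20 and 517 lay below the lowest +/+ tumour, and mouse 866 was near the highest. It differed by -0.73 ± 0.43 (SE, limma adjusted p = 0.65), but by -1.15, -0.43 and 0.36 within the 3 slides, so the third slide had the other sign.

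Tnfrsf13c, the BAFF receptor of mature B cells, went the other way. It read 3.97, 2.84, 4.60, 3.67 and 4.16 in +/L and 2.42, 4.35, 3.81, 2.99 and 2.11 in +/+ tumours, with the lowest values in +/+ mice 19 and 40 and in +/L mouse 866. The difference was 0.71 ± 0.47 (SE, limma adjusted p = 0.7), but 1.58, -0.44 and -0.12 within the 3 slides, so its sign was not shared by them.

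**Figure D2:**
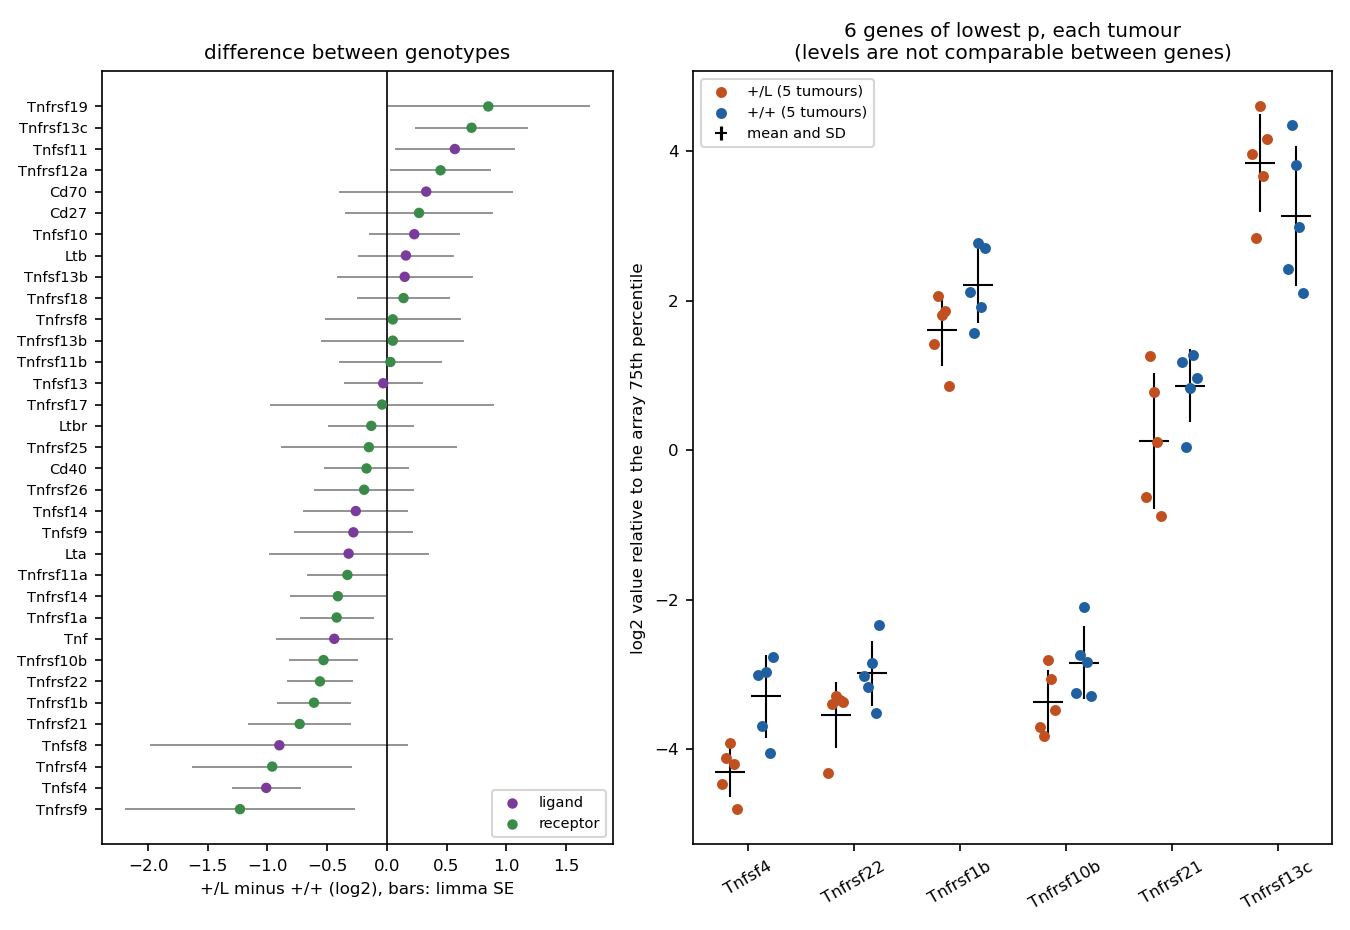
Left, difference of each of 34 members between +/L and +/+ tumours on the log2 scale, with bars for the limma standard error, for ligands and receptors. Right, log2 value of each tumour for the 6 members of lowest unadjusted p, with the mean and SD of 5 tumours per genotype. For 0 of these 6 genes did the 2 sets of 5 values separate.

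Markers of macrophages were lower on average in +/L, without passing the test. All 7 markers had this sign, and each was well above background on all 10 arrays, so none was near 0. Their score lay between -2.32 and 0.44 in +/L tumours and between 0.07 and 1.10 in the +/+ group, a difference of -1.08 (exact two-sided permutation p = 0.024, adjusted p = 0.13 over 11 marker lists). Over the 10 tumours the score correlated with Tnfsf4 (r = 0.72), Tnfrsf1b (0.77), Tnfrsf21 (0.75) and Tnfrsf1a (0.73), and its part in their differences was not tested. The score of 5 NK-cell markers was higher in +/L, by 1.0, with values of 0.08 to 1.42 in +/L tumours and -1.80 to 0.07 in the +/+ group (exact permutation p = 0.0079, the smallest the test can give, adjusted p = 0.087). The value of -1.80 was that of mouse 11, and the other +/+ tumours lay within -0.47 to 0.07. Of these 5 markers 2 were well above background on all 10 arrays, and Klra8, on 8 arrays, was at -7.09 in mouse 11, so the score holds values near background. Scores of mast cell markers (4 of 5 tested) and of 5 adipocyte markers were higher on average in +/L by 1.32 and 3.14 (exact permutation p = 0.063 and 0.079, adjusted p = 0.22 each), with 2 markers of each list well above background on all 10 arrays. The parts of these 3 cell types in the members' differences were not tested.

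Age differed between the groups, and the fit with age as a covariate moved several members. There, 8 of 34 had an unadjusted limma p under 0.05, against 5.96% of all genes in the same fit, and 0 had an adjusted p under 0.05. Lower in +/L at equal age were Tnfrsf21 (-1.79 ± 0.42, SE), Tnfrsf1a (-1.09), Tnfsf13b (-1.33), Tnfsf4 (-1.05), Tnfrsf11b, the decoy receptor osteoprotegerin (-1.0), and Tnfrsf1b (-0.98). Higher were Tnfrsf13c (1.65 ± 0.56, SE) and Tnfrsf13b (1.45). Their adjusted p was 0.83 each. The youngest mouse, 866, was +/L and the oldest, 11, was +/+. The signs of Tnfsf13b and Tnfrsf11b turned between the fits, since without age they differed by 0.15 and 0.03.

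The members that varied most over the 10 tumours were Tnfsf8, Tnfrsf9, Tnfrsf17, Tnfrsf19 and Tnfrsf25, with SDs of 1.87, 1.74, 1.57, 1.49 and 1.24. For Tnfsf8, the ligand of CD30, mouse 20 decided the spread: the +/L tumours read -5.95, 0.42, -0.39, -0.39 and -0.46 and the +/+ tumours -0.85, -1.17, -0.16, -0.89 and 0.81. The 9 tumours other than mouse 20 lay within -1.17 to 0.81, and 4 of 5 +/L arrays and all 5 +/+ arrays had the probe well above background. The difference of -0.90 ± 1.08 (SE) became 0.25 without it. The same tumour was lowest for Tnfrsf9, the costimulatory receptor CD137, which read -5.65, -0.89, 0.34, -0.77 and -2.12 in +/L and -1.29, -0.69, 0.31, -1.19 and -0.07 in +/+ tumours. Its difference of -1.23 ± 0.96 (SE, limma adjusted p = 0.74) was -0.27 without mouse 20. The probe was well above background on 4 of 5 +/L arrays.

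Tnfrsf17, the receptor BCMA of plasma cells, ran the other way in mouse 20. It read 3.56, -1.85, -0.50, 0.21 and 1.67 in +/L and 1.54, -0.69, 1.89, 0.70 and -0.15 in +/+ tumours. Mouse 20 was highest and mouse 866 lowest, and both are +/L, so the means over all tumours nearly coincide (difference -0.04 ± 0.94, SE). The near equality rests on mouse 20, since the Tnfrsf17 difference was -0.78 without it and -1.11 without mice 20 and 11. Tnfrsf19, the receptor TROY, read -0.14, -3.09, -2.99, -4.01 and -0.68 in +/L and -2.07, -4.58, -4.21, -1.59 and -2.68 in +/+ tumours. Mice 20 and 517 were highest and +/+ mice 11 and 101 lowest. The difference of 0.85 ± 0.85 (SE, limma adjusted p = 0.81) was 0.34 without mouse 20 and -0.05 without mice 20 and 11.

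Pairs of ligand and receptor were compared across the tumours next. Of 27 listed pairs, 22 had both genes tested. By permutation of Pearson's r, 0 of 22 had an adjusted p under 0.05 and 2 an unadjusted one, and by Spearman's rho 0 and 3. The median r was -0.14, with 14 pairs below 0 and 8 above, where the other 242 combinations of a tested ligand with a tested receptor had a median of 0.18. Without mouse 20 these medians were -0.22 and 0.13. The combinations share genes and tumours, and no test was made of the medians.

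The pair of lowest p was APRIL and TACI. APRIL (Tnfsf13) read 1.20, 2.47, 1.80, 1.72 and 0.91 in the +/L tumours and 1.79, 1.20, 2.08, 1.15 and 2.05 in the +/+ tumours. TACI (Tnfrsf13b) read 4.46, 0.80, 2.28, 2.48 and 2.93 in +/L and 2.16, 3.65, 2.36, 2.64 and 1.89 in +/+ tumours. Mouse 866 was highest for the ligand and lowest for the receptor, and mice 20 and 11, highest for the receptor, were among the 5 lowest for the ligand. Pearson's r was -0.80 (permutation p = 0.0036, adjusted p = 0.079 over 22 pairs) and Spearman's rho -0.82 (p = 0.0059, adjusted p = 0.13). Without mice 866 and 517, farthest from the ligand's median, r was -0.77, and without mouse 20 r was -0.84. Leaving out mice 20 and 11 gave -0.85 (exact permutation, adjusted p = 0.053). Deviations from the genotype means gave -0.80 and deviations from the slide means -0.65. The adjusted p was 0.030 without mouse 517, 0.39 without mouse 866 and between 0.068 and 0.23 when another single tumour was left out.

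BAFF (Tnfsf13b) read 0.13, 2.84, 0.20, -0.15 and 1.15 in +/L and 1.21, -0.23, 0.20, 1.11 and 1.14 in +/+ tumours. Mouse 866 stood above the rest, and the other 9 tumours lay within -0.23 to 1.21. With TACI its r was -0.71 (permutation p = 0.029, adjusted p = 0.32) and its rho -0.66 (p = 0.045, adjusted p = 0.33). Without mice 866 and 11 this r was -0.32, so the relation rests on these tumours. With the BAFF receptor (Tnfrsf13c) r was -0.62 (permutation p = 0.052, adjusted p = 0.32) and rho -0.55 (p = 0.11, adjusted p = 0.35), and r was -0.63 without the same 2 tumours. With BCMA r was -0.37 (adjusted p = 0.65). All 5 listed pairs of BAFF or APRIL with a receptor thus had an r below 0, and 2 of them share TACI.

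The OX40 pair was the highest of the 22. Tnfrsf4 read 0.18, 3.52, 3.45, 3.37 and 2.32 in +/L and 2.87, 3.04, 4.91, 3.06 and 3.76 in +/+ tumours, lowest in mouse 20 and highest in mouse 101. With Tnfsf4 its r was 0.60 (permutation p = 0.058, adjusted p = 0.32), rho 0.61 (p = 0.068, adjusted p = 0.35), and r 0.38 without mice 101 and 19. CD70 and its receptor CD27 ran against each other, largely through 1 tumour. Cd70 read -1.30, -5.35, -5.31, -4.60 and -4.71 in +/L and -5.25, -4.58, -3.44, -4.96 and -4.68 in +/+ tumours, highest in mouse 20 by more than 2 units. Cd27 read -0.57, 2.47, 2.06, 0.43 and 1.79 in +/L and 0.08, 0.22, 1.45, 0.94 and 2.16 in +/+ tumours, lowest in mouse 20. Their r was -0.55 (permutation p = 0.078, adjusted p = 0.34), rho -0.55 (p = 0.11, adjusted p = 0.35), and r was -0.11 without mouse 20.

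Other pairs also turned on mouse 20. CD137 and its ligand (Tnfrsf9 and Tnfsf9) had an r of 0.07 over 10 tumours and 0.77 over the 9 without mouse 20 (rho 0.54 and 0.88). Without mice 20 and 11 its r was 0.92 over 8 tumours (exact permutation p = 0.00025, adjusted p = 0.0055), the only pair of 22 that passed there. It passed in no other alternative run, and its r was -0.17 without mice 517 and 11. TRAIL (Tnfsf10) and the decoy Tnfrsf22 had -0.48 and 0.22. For TRAIL and its death receptor Tnfrsf10b, r was -0.56 (permutation p = 0.093, adjusted p = 0.34) and rho -0.77 (p = 0.013, adjusted p = 0.14), and deviations from the slide means gave -0.72 (exact permutation p = 0.0012, adjusted p = 0.025). Tnfsf10 read -0.31, -1.34, -1.88, -2.39 and -1.77 in +/L and -1.46, -2.49, -1.79, -1.60 and -1.47 in +/+ tumours, with mouse 20 highest. TNF itself had an r of 0.02 with Tnfrsf1a and of -0.12 with Tnfrsf1b, and lymphotoxin β (Ltb) one of -0.03 with Ltbr.

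**Figure D3:**
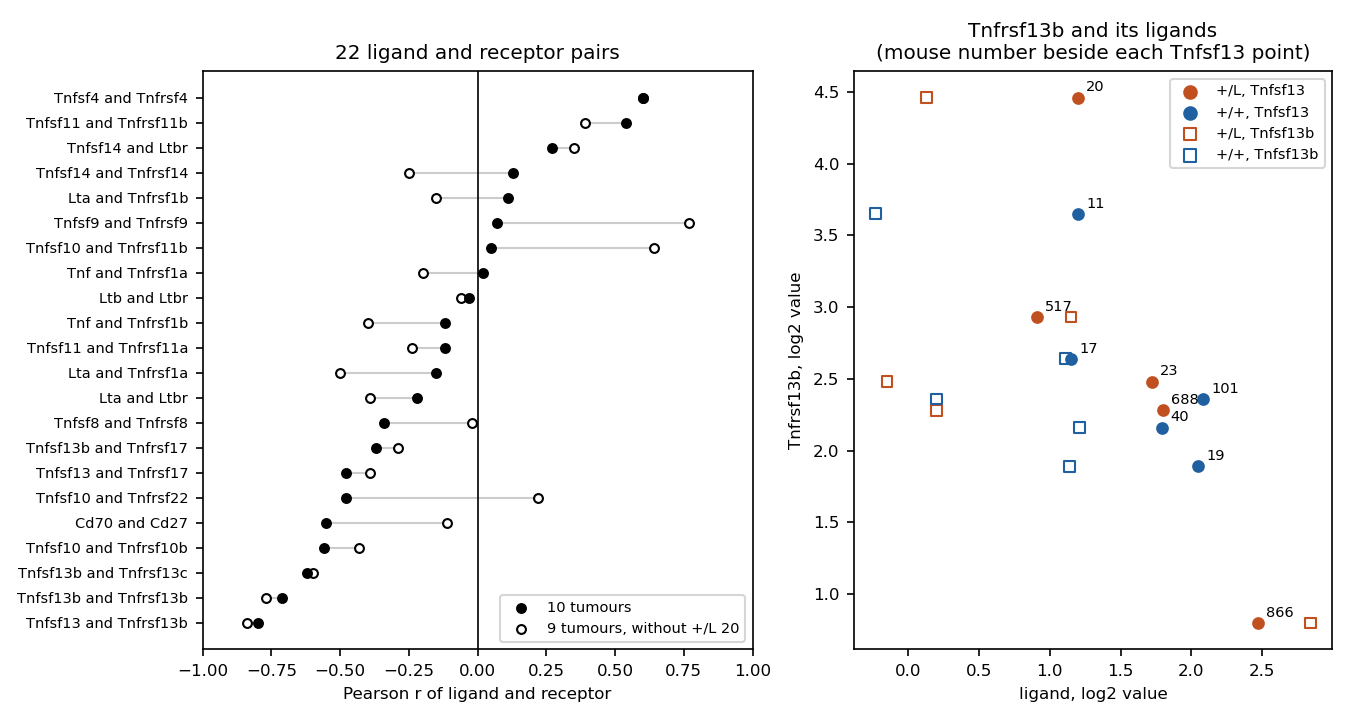
Left, Pearson's r of each of 22 ligand and receptor pairs over 10 tumours (filled) and over 9 tumours without +/L mouse 20 (open). Right, log2 value of Tnfrsf13b against those of Tnfsf13 (circles, with mouse numbers) and Tnfsf13b (squares) in each tumour, with r of -0.80 and -0.71.

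Each member was then set against 5 marker scores, of B cells, T cells, plasma cells, macrophages and fibroblasts, none of which uses a member. Of 170 relations, 0 had an adjusted p under 0.05 by permutation of r, and the smallest was 0.054. An unadjusted p under 0.05 was reached by 32 of the 170, and by 18.4% of the 561 pairs of tested members. The share over all genes was not computed, so whether these counts are particular to the members was not tested. Of the 32, 12 were with the plasma cell score, 10 with the T-cell score, 5 with macrophages, 4 with fibroblasts and 1 with B cells. Of the 12 with the plasma cell score, 9 had an r below 0, among them Tnfsf8 (-0.81), Tnfrsf9 (-0.79), Tnfsf11 (-0.78), Cd27 (-0.77), Tnfrsf4 (-0.77) and Tnfrsf18 (-0.76). Without mouse 20, in the same order, r was -0.50, -0.40, -0.59, -0.63, -0.41 and -0.75, so most of these rest partly on that tumour. Of the 10 with the T-cell score, 9 had an r above 0. Without mice 20 and 11 the smallest adjusted p of the 170 was 0.32, by exact permutation over 8 tumours. On normexp and quantile-normalised values 6 relations passed, as named below. The plasma cell and T-cell scores themselves had an r of -0.74, and of -0.53 without mouse 20.

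Among the costimulatory receptors, Cd27 and Tnfrsf18 had the highest r with the T-cell score, Tnfrsf9 and Tnfrsf4 had 0.72 and 0.69 (0.34 and 0.33 without mice 20 and 19), and Tnfrsf8 had -0.46. Tnfsf8 and the T-cell score had an r of 0.81 (permutation p = 0.00032, adjusted p = 0.054), rho 0.93 (p = 0.00037, adjusted p = 0.057), and r was 0.72 without mice 20 and 19 and 0.84 without mouse 20. For Cd27 r was 0.89 (permutation p = 0.00079, adjusted p = 0.067), rho 0.87 (p = 0.0023, adjusted p = 0.057), and r 0.83 without mice 20 and 19. Tnfrsf18, the receptor GITR of regulatory and activated T cells, read 2.86, 4.25, 4.14, 3.64 and 3.42 in +/L and 3.20, 2.64, 4.39, 3.26 and 4.11 in +/+ tumours. It was lowest in +/+ mouse 11 and mouse 20, and its r was 0.81 (permutation p = 0.0045, adjusted p = 0.096), rho 0.81 (p = 0.0070, adjusted p = 0.097), and r 0.81 without mice 20 and 19.

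Tnfrsf26, a mouse receptor gene beside Tnfrsf22 and Tnfrsf23, read -3.56, -1.36, -1.60, -1.99 and -1.67 in +/L and -2.26, -2.23, -1.94, -1.65 and -1.14 in +/+ tumours. Mouse 20 was lowest, and the probe was well above background on 4 of 5 +/L arrays. Its r with the T-cell score was 0.84 (permutation p = 0.0014, adjusted p = 0.070), rho 0.81 (p = 0.0074, adjusted p = 0.097), and r 0.59 without mice 20 and 19. For Tnfrsf22 r was 0.78 (permutation p = 0.0078, adjusted p = 0.097) but rho 0.53 (p = 0.12, adjusted p = 0.48), and r was 0.18 without the same 2 tumours. On normexp and quantile-normalised values Tnfsf8 (r = 0.90), Tnfrsf26 (0.90) and Cd27 (0.89) passed with the T-cell score, with adjusted p of 0.020 to 0.030.

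TACI had its lowest p with the plasma cell score, but was not related to that score alone. Its r was -0.76 with the T-cell score and -0.76 with the fibroblast score (adjusted p = 0.11 and 0.12 by permutation). With the plasma cell score Tnfrsf13b had an r of 0.89 (permutation p = 0.0020, adjusted p = 0.070), rho 0.88 (p = 0.0016, adjusted p = 0.057), and r 0.55 without mice 20 and 866 and 0.79 without mouse 20. BCMA (Tnfrsf17) had an r of 0.71 (permutation p = 0.022, adjusted p = 0.16) but a rho of 0.38 (p = 0.28, adjusted p = 0.65), and an r of -0.03 without these 2 tumours. APRIL ran against the plasma cell score, at an r of -0.72 (permutation p = 0.014, adjusted p = 0.12), rho -0.83 (p = 0.0048, adjusted p = 0.090), and r -0.64 without mice 20 and 866. BAFF instead followed the fibroblast score, at an r of 0.82 (permutation p = 0.0039, adjusted p = 0.095), rho 0.87 (p = 0.0021, adjusted p = 0.057), and r 0.56 without mice 866 and 11. Both Tnfrsf13b with the plasma cell score (0.88) and Tnfsf13b with the fibroblast score (0.87) passed on normexp values, at an adjusted p of 0.043 each.

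The lowest p with the macrophage score belonged to RANK (Tnfrsf11a), a receptor of osteoclast precursors and dendritic cells. Tnfrsf11a read -1.33, -0.38, -1.34, -1.31 and -2.47 in +/L and -0.66, -1.25, -1.17, -1.04 and -1.05 in +/+ tumours, lowest in mouse 517, which also had the lowest macrophage score. The r was 0.90 (permutation p = 0.0021, adjusted p = 0.070), rho 0.87 (p = 0.0022, adjusted p = 0.057), and r 0.57 without mice 40 and 517. On normexp values it passed (r = 0.91, adjusted p = 0.030). A second Tnfrsf11a probe, at base 1860 of the record where the first is at base 4215, had an r of 0.48 with this score and of 0.31 with the first probe.

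With the B-cell score 1 member reached an unadjusted p under 0.05. Lymphotoxin β (Ltb), which B and T cells make to organise lymphoid stroma, read 6.47, 6.50, 7.51, 7.17 and 8.15 in +/L and 7.35, 5.86, 7.12, 7.20 and 7.44 in +/+ tumours, lowest in mouse 11 and highest in mouse 517. Its r was 0.68 (permutation p = 0.032, adjusted p = 0.19), rho 0.77 (p = 0.013, adjusted p = 0.13), and r 0.58 without mice 866 and 517. The next by p were Tnfrsf11a (r = -0.64), Tnfrsf10b (0.53), Tnfsf10 (-0.47) and Lta, lymphotoxin α (0.47), with adjusted p of 0.30 to 0.43 by permutation. Lta read -0.97, 1.17, 2.16, 1.34 and 1.83 in +/L and 0.61, 2.36, 2.90, 0.82 and 0.46 in +/+ tumours, lowest in mouse 20 and highest in mouse 101. Without mice 866 and 517 the r of Tnfrsf11a turned to 0.31. The BAFF receptor, a B-cell gene, was not among the 5.

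**Figure D4:**
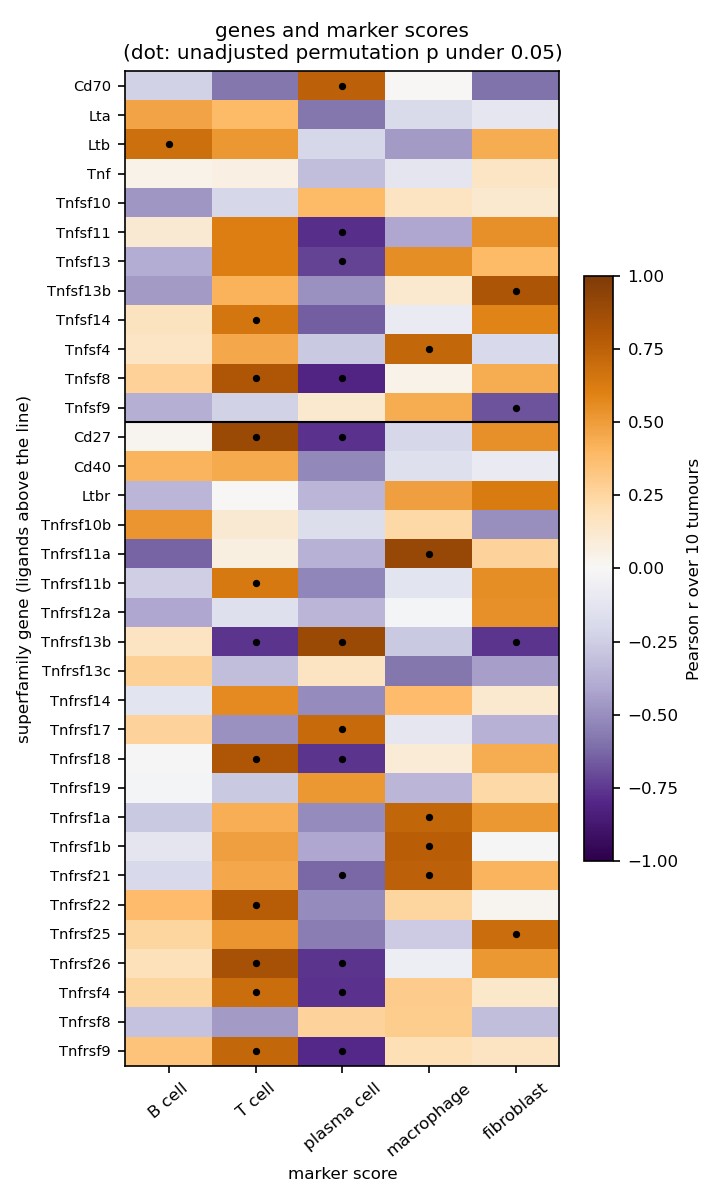
Pearson's r over 10 tumours (colour) between each of 34 members and the marker scores of 5 cell types, with a dot where the unadjusted permutation p was under 0.05. The 32 dots lie mostly in the T-cell and plasma cell columns, 10 and 12, and 0 of 170 relations passed after adjustment. The share of dots over all genes was not computed.

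The remaining members are given by their range over the 10 tumours and their difference. Tnfsf11 (RANK ligand) read -4.80, -1.90, -2.60, -3.08 and -2.09 in +/L and -3.40, -3.17, -3.19, -4.15 and -3.44 in +/+ tumours, with mouse 20 lowest and mouse 866 highest, and differed by 0.57 ± 0.50 (SE). Tnf lay within -2.04 to 0.35 and differed by -0.44. Tnfsf14 (LIGHT) lay within -0.85 to 1.48 and differed by -0.26. The groups overlapped for these 3 ligands, as they did for Tnfsf9 (CD137 ligand), which lay within -4.22 to -1.43 and differed by -0.28. Among the receptors, Tnfrsf1a, the TNF receptor with a death domain, lay within 2.29 to 3.66 (difference -0.42), Ltbr, the lymphotoxin β receptor, within 1.07 to 2.51 (-0.13) and Cd40, the receptor for T-cell help on B cells, within 0.85 to 2.96 (-0.17). Tnfrsf14 (HVEM) lay within -0.91 to 1.09 (-0.41) and Tnfrsf12a, the TWEAK receptor, within -2.03 to 0.60 (0.45). Tnfrsf8 (CD30) and Tnfrsf11b were each well above background on 7 of 10 arrays and differed by 0.05 and 0.03. Limma adjusted p-values of these 11 members lay between 0.72 and 0.99.

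Several receptors were read by more than 1 probe, and probes of 1 gene did not always order the tumours alike. Sequences of 3 of these probes are shown, as those whose second readings bear on the receptor values above, and they were picked after the values were seen. Each is the 60-base probe given in the scanner files, in lower case, 5′ to 3′.
Tnfrsf13b, probe A_51_P106269: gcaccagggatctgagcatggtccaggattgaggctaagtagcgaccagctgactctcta
Tnfrsf1b, probe A_51_P278282: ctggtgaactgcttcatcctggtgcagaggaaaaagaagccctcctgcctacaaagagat
Tnfrsf25, probe A_51_P178561: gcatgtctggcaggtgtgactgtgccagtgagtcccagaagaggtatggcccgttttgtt
The files place the first at chr11:60954968-60960376 and the second at chr4:144812866-144813439 in mm9, spans of 5409 and 574 bases for 60 bases of probe, so both cross an intron and read spliced RNA. The third lies at chr4:151490755-151490814. They begin at bases 320, 903 and 303 of their records, and the probe that stood for each gene lies further 3′.

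For TACI the spliced probe read 1.75, -4.09, -2.45, -1.62 and -1.03 in +/L and -1.64, -0.02, -1.29, -1.04 and -1.91 in +/+ tumours. Mouse 20 was again highest and mouse 866 lowest, and over 10 tumours its r with the first probe was 0.97. For Tnfrsf1b the second probe read -1.20, -2.12, -2.10, -2.15 and -2.55 in +/L and -1.71, -2.17, -1.45, -1.87 and -1.67 in +/+ tumours. Here mouse 20 was the highest, where on the first probe it was among the 2 lowest. The probes had an r of 0.51 over 10 tumours and of 0.93 without mouse 20, and the second differed by -0.25 between genotypes (exact permutation p = 0.37), against -0.61 on the first.

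Tnfrsf25 (DR3, the receptor of TL1A) was the clearest disagreement. Its first probe read -1.0, 2.76, 1.46, 1.73 and 3.42 in +/L and 1.99, 1.08, 1.08, 2.89 and 2.06 in +/+ tumours. The second read -1.63, -2.96, -3.26, -4.10 and -2.60 and -2.77, -4.12, -4.03, -2.41 and -3.32. Mouse 20 was the lowest of 10 tumours on the first and the highest on the second, and r was -0.10 with that tumour and 0.84 without it. The genotype difference was -0.15 on the first probe and 0.42 on the second (exact permutation p = 0.88 and 0.46). Values of Tnfrsf25 in mouse 20 thus depend on the probe. For Tnfrsf10b as well, agreement between the first probe and the 2 others rose from r of 0.55 and 0.76 to 0.86 and 0.94 when mouse 20 was left out. Probe pairs of Tnfrsf14, Tnfrsf21, Tnfsf11, Tnfsf13b and Tnfrsf9 had r of 0.92 to 0.99 with mouse 20 included.

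**Figure D5:**
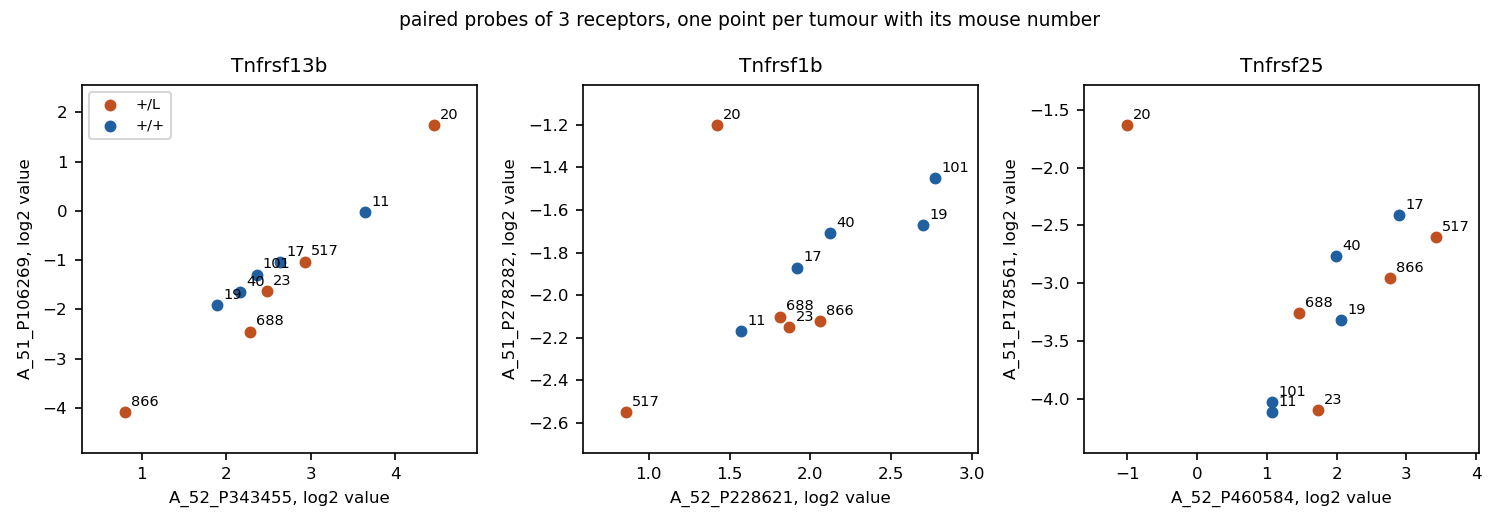
Log2 values of paired probes of Tnfrsf13b, Tnfrsf1b and Tnfrsf25 in each of 10 tumours, with mouse numbers. Mouse 20 lies on the common trend for Tnfrsf13b (r = 0.97) and off it for Tnfrsf1b and Tnfrsf25 (r = 0.51 and -0.10, and 0.93 and 0.84 without it).

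Many of these genes lie in clusters. Within 150 kb of each other were 12 pairs of tested members, a set chosen after earlier values were seen, with a median r of 0.28, against 0.14 over all 561 pairs of tested members. By permutation, 3 of 12 had an adjusted p under 0.05, and 4 of 12 (33.3%) an unadjusted one, against 18.4% of all 561 pairs. The 3 calls held for deviations from the genotype means (adjusted p of 0.011 to 0.031 by exact permutation). They did not hold in most alternatives: 0 passed with normexp, for deviations from slide means, without mice 866 and 17 or without mice 20 and 11, and at most 2 when any single tumour was left out (0 without mouse 20, 866, 23 or 101). Cd70 and Tnfsf14, 40.1 kb apart on chromosome 17, ran against each other (r = -0.93, permutation p = 0.0019, adjusted p = 0.023), with rho -0.77 (p = 0.013, adjusted p = 0.079). That r was -0.76 without mouse 20 and -0.41 without mice 20 and 101, so it rests on those tumours. Ltbr and Tnfrsf1a, 55.8 kb apart on chromosome 6, had an r above 0 (r = 0.78, permutation p = 0.0099, adjusted p = 0.041; rho 0.73, p = 0.020, adjusted p = 0.080), with r 0.54 without mice 40 and 866. GITR and OX40 (Tnfrsf18 and Tnfrsf4), 12.2 kb apart on chromosome 4, did too (r = 0.70, permutation p = 0.010, adjusted p = 0.041; rho 0.84, p = 0.0033, adjusted p = 0.039), with r 0.78 without mice 11 and 101. The Tnf, Lta and Ltb genes, within 7.2 kb, had r of 0.55, -0.10 and 0.10 for Lta and Tnf, Ltb and Tnf, and Lta and Ltb (adjusted p = 0.23, 0.86 and 0.86 by permutation).

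C/EBPβ is the protein altered in the +/L mice and NF-κB is a common regulator of the family, so their motifs were looked for in RefSeq promoter windows of GRCm38.p6 (250 bases before to 50 after a start). Windows were held for 28 of the 39 genes, 32 windows in all, matched by symbol. The C/EBP motif searched was TTGCNNAA on both strands. It was found in 3 of 32 windows (9.38%), against 10.8% of all 32851 windows. The κB consensus, on both strands, was found in 3 of 32 (9.38%), against 4.51% of all windows. Both motifs and the windows shown were chosen after expression values were seen, and a match of letters is not a bound site. The matches are shown with the bases round them, motif in capitals and each on the strand of its gene.
Tnfsf13b, C/EBP, chr8:10006629-10006658, plus strand: cggaaggcagaTTGAGCAAtccatggaagg
Tnfsf14, C/EBP, chr17:57194136-57194165, minus strand: gcccgagcgtgTTGGGCAAttgtggtttcc
Tnfrsf23, C/EBP, chr7:143685937-143685966, minus strand: cgcccacgagaTTAGGCAAccatacagaaa
Tnfrsf8, κB, chr4:145315313-145315342, minus strand: tcaaaacgcaGGGGAGCCCCctgcgtgcgt
The differences between genotypes of the 2 tested genes with a C/EBP match were 0.15 for Tnfsf13b and -0.26 for Tnfsf14, with limma adjusted p of 0.95 and 0.90, and Tnfrsf23 was not measured above background.

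For Ltb and Tnfrsf9 the 250 bases before the start are shown whole, as the 2 tested members with a κB match nearest their start. The Ltb match lies at positions -87 to -78 from the start, and in Tnfrsf9 2 overlapping matches lie at -43 to -33 from 1 of the 2 starts held. The window of the other Tnfrsf9 start, from position 150919905, has 0 matches, as has 1 of the 2 windows of Tnfsf13b for the C/EBP motif.
Ltb, chr17:35194257-35194506, plus strand: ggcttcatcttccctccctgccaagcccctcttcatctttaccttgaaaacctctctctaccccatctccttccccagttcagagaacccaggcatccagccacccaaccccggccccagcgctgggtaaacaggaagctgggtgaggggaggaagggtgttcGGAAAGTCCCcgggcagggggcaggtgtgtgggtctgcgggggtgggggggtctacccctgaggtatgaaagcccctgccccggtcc
Tnfrsf9, chr4:150927749-150927998, plus strand: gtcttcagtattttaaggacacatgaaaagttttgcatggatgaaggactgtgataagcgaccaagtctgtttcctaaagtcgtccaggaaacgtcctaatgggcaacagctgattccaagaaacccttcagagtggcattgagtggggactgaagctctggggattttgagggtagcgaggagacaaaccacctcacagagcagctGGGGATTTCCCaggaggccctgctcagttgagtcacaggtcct
Ltb, Tnfrsf9 and Tnfrsf8, the 3 genes with a κB match, differed by 0.16, -1.23 and 0.05 between the genotypes (limma adjusted p = 0.93, 0.74 and 0.99).

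Finally, 28 signalling partners of the receptors were measured, TRAF and cIAP proteins, death-domain adaptors, the linear ubiquitin complex and kinases upstream of NF-κB. In limma 0 of 28 had an adjusted p under 0.05 and 1 an unadjusted one, where 8.58% of all genes did. Of the 28, 20 were lower and 8 higher in +/L (51.9% of all genes were lower), and the median difference was -0.10, against -0.02 over all genes. The score of the 28 was -0.54 in mouse 20 and between -0.06 and 0.20 in the other 9 tumours. Without mouse 20, 0 of 28 had an unadjusted limma p under 0.05, in a fit where the share of all genes was higher than 8.58%. The 3 of lowest p were Rnf31 and Rbck1, subunits of the linear ubiquitin complex, and Tnfaip3, which encodes the NF-κB inhibitor A20. Rnf31 read 2.62, 2.74, 2.81, 3.13 and 3.28 in +/L and 3.37, 3.20, 3.94, 3.07 and 3.49 in +/+ tumours, with 2 +/L tumours within the +/+ range. It differed by -0.50 ± 0.22 (SE, limma adjusted p = 0.58). Tnfaip3 read 1.68, 2.59, 2.26, 2.85 and 2.57 in +/L and 3.25, 2.75, 2.96, 2.54 and 2.94 in +/+ tumours, lowest in mouse 20, and differed by -0.50 ± 0.25 (SE, limma adjusted p = 0.61). Rbck1 read 3.71, 3.89, 4.33, 4.31 and 4.19 in +/L and 4.34, 4.61, 4.72, 4.07 and 4.57 in +/+ tumours, again lowest in mouse 20 and with overlapping groups, and differed by -0.37 ± 0.20 (SE, limma adjusted p = 0.64). Of other genes, picked after their values were seen, Traf1, induced by NF-κB, was at 1.37 in mouse 20 and between 3.83 and 4.99 in the other 9 tumours. Of 7 superfamily genes named otherwise, such as Fas, 5 were tested and 0 passed, 3 lower and 2 higher in +/L, and Fas was at 0.01 in mouse 20, against 2.13 to 3.22 elsewhere.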

How the data were processed

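Total RNA of 10 lymphomas was read on single-colour Agilent arrays. The deposited intensity of each spot is the processed signal of Feature Extraction 10.5.1.1, background-corrected and detrended, with positions in mm9, per the file headers. The log2 values in the authors' deposited table served only as an alternative, because the sources used here do not give how they were normalized. Other deposited columns used were flags per spot, 0 or 1, for background, saturation and outliers.

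Control spots and outlier spots were left out and spots of a probe averaged (73 probes lost). Log2 signals were scaled by the 75th percentile of each array. Probes above background on 3 or more of 10 arrays were kept (26410), and the probe of highest mean stood for a gene. Genotypes were compared with limma 3.58.1 in R 4.3.3 over 17775 genes, with Benjamini-Hochberg adjustment and a threshold of 0.05, checked on simulated data, and for single values with exact permutation of 252 splits. Correlations used 100000 permutations, and exact pairings within slides or genotypes. The p-values measure the spread among these mice. Values for every tumour are given for the 6 members of lowest p, the 5 pairs of lowest p, the 5 members of largest SD, the 5 of lowest p with the B-cell and the T-cell score, members with a tumour apart from its group, and the 3 signalling partners of lowest p. Tnfrsf9 and Tnfrsf19 also end the range of differences. The members and all lists were chosen with earlier results of these data known.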

Additional observations from a re-analysis of the deposited data

Results flagged for a closer look

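In 6 of 68 groups of 5 tumours, 1 tumour lay apart from the other 4 by a Dixon ratio above its critical value of 0.71, which chance gives in about 1 in 20 groups. Mouse 20 accounts for 4 of them. Among the +/L tumours, it was the highest for Cd70, at -1.30 against -5.35 to -4.60 in the other 4. It was the lowest for Tnfsf8, at -5.95 against -0.46 to 0.42, for Tnfrsf22, at -4.32 against -3.39 to -3.28, and for Tnfrsf26, at -3.56 against -1.99 to -1.36. Among the +/+ tumours, mouse 11 was lowest for Ltb, at 5.86 against 7.12 to 7.44, and mouse 17 was lowest for Tnfsf11, at -4.15 against -3.44 to -3.17.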

How the results depend on the processing

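With limma, 0 superfamily genes had an adjusted p under 0.05 in any of 23 alternative runs. The signalling partners were run again only with normexp and quantile normalization and with each single tumour left out. There, 0 of them had an adjusted limma p under 0.05. The count of superfamily genes with an unadjusted p under 0.05, 1 as reported, was 0 when only probes well above background on all 10 arrays were kept, 8 with age as a covariate, 2 without mice 20 and 11, and 3 without mice 866 and 17, whose slide labels conflict. Of all genes tested, 8.58% had such a p as reported, and 10.6%, 5.96%, 14.2% and 7.18% in these fits, in the same order. The count of superfamily genes ranged from 1 to 3 when 1 tumour was left out, with 3 without mouse 866 or mouse 11 and 2 without mouse 20, 688 or 17. The share of all genes was then 6.82% without mouse 866 and 8.52% without mouse 11, and was highest without mouse 20. The Tnfrsf19 difference turned to -0.05 without mice 20 and 11. Of the 34 members, 12 kept the sign of their difference in all alternatives and 22 turned in at least 1. The count of ligand and receptor pairs with an adjusted p under 0.05, 0 as reported, was 1 for deviations from slide means (Tnfsf10 and Tnfrsf10b), 1 without mice 20 and 11 (Tnfsf9 and Tnfrsf9), and ranged from 0 to 1 when 1 tumour was left out, with 1 without mouse 517 (Tnfsf13 and Tnfrsf13b, r = -0.86). The count of relations with marker scores, 0 as reported, was 6 with normexp and quantile normalization, and ranged from 0 to 3 when 1 tumour was left out, with 3 without mouse 17, 2 without mouse 40 or mouse 866 and 1 without mouse 23. The count of neighbouring pairs, 3 as reported, was also 3 for deviations from genotype means. It was 0 with normexp and quantile normalization, 0 for deviations from slide means, 0 without mice 866 and 17 and 0 without mice 20 and 11. It ranged from 0 to 2 when 1 tumour was left out, with 0 without mouse 20, 866, 23 or 101 and 1 without mouse 40, 688, 517 or 17, and 2 without mouse 11 or 19. The cause of these changes was not tested. Leaving out mice 866 and 17, leaving out mice 20 and 11 from correlations, the neighbouring pairs and the comparison of probes were chosen after seeing the data. No paired analysis was possible because the genotypes share no mouse numbers. Standard errors of the differences were largest for Tnfsf8, Tnfrsf9 and Tnfrsf17 (1.08, 0.96 and 0.94).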
